A study of Saccharomyces cerevisiae with 24 samples.

Results

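The 52 genes described here encode ribosome biogenesis factors of the budding yeast Saccharomyces cerevisiae, the proteins that process and assemble pre-ribosomes and are not part of the finished ribosome. They were taken by gene identifier from a list of assembly factors. The rule itself uses no measured value, but the list was drawn up with earlier results of these data known. They make up 52 of the 6814 genes with read counts. All 52 had counts in every library and passed the filter on low counts in every comparison. By known role they fall into 10 classes, with 28 factors of the small-subunit pathway and 24 of the large-subunit pathway.

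Ribosome assembly starts in the nucleolus, where RNA polymerase I transcribes a long precursor ribosomal RNA. The UTP-A, UTP-B and Mpp10 complexes and the U3 snoRNP bind this precursor and build the small-subunit processome, while helicases, GTPases and further factors fold, trim and export the pre-60S particle of the large subunit. In growing yeast the genes of these factors are known to be transcribed together as the ribosome biogenesis regulon, which is high in rich medium and low under stress, and many of their promoters hold the PAC and RRPE motifs. The repressors Dot6 and Tod6 bind PAC, and Stb3 binds RRPE.

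The series compared 2 strains of the GA74-1A background in 4 media, with 3 libraries in each of the 8 groups. Both strains lack PSD2 and the native copy of PSD1 and carry a PSD1 construct in its place. In the control strain (WT) this construct is a functional Psd1 with a 3XFLAG tag. In the mutant strain (LG) the LGS motif at which Psd1 cuts itself was replaced by alanines (LGS/AAA), and the enzyme then does not mature. The enzyme also does not support growth on medium lacking ethanolamine, although the mutant cultures here grew in YPD with and without added ethanolamine. Psd1 is the mitochondrial enzyme that makes phosphatidylethanolamine (PE), so the control strain is itself a double deletion that depends on its construct. Cultures grew in the rich medium YPD, harvested at an OD600 of 0.5 to 0.7. WTD and LGD had YPD alone, WTE and LGE had 2 mM ethanolamine added, and WTC and LGC had 2 mM choline. WTL and LGL had 1% tergitol, a detergent, with 0.5 mM lyso-PE. No group had tergitol alone, so detergent and lipid cannot be told apart.

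Each library held 16044470 to 20946936 counted reads, and the smallest count of any of the 52 genes in any library was 78, for RSA4. PSD1 stood at 550 ± 131 CPM (counts scaled to the effective library size) in LGD and 862 ± 26.7 CPM in WTD (SD, n = 3). Counts per gene do not separate the mutant from the control construct, so this does not check the labels. In every group replicates 1 and 2 nearly coincided, with Pearson correlations of log2 CPM from 0.993 to 0.996 over 6031 genes, and replicate 3 stood apart with 0.938 to 0.989. The labels do not say that replicates are separate cultures, and p-values measure only the spread between these libraries. The counts of calls are therefore also given with replicates 1 and 2 of each group summed into 1 library, and, as an alternative chosen after the data were seen, without replicate 3 of any group. Each value is an average over a culture, in which fewer cells with a transcript and less of it per cell cannot be told apart.

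The 52 genes share sequence upstream of their start codons. Their choice did not use sequence, but PAC and RRPE were searched as known motifs of such promoters. Finding them is therefore not independent of the choice of genes. The 5830 protein-coding genes set beside the 52 include them. In the 300 bases before the start codon, 47 of 52 (90.4%) held the PAC core GATGAG on either strand, against 18.4% of 5830 protein-coding genes. The longer PAC form GCGATGAG, which lies within the GATGAG matches, was present in 32 (61.5%, against 4.13%). The RRPE core AAAAATTTT was present in 36 (69.2%, against 7.44%), and both PAC and RRPE in 32 (61.5%, against 3.74%). No PAC match overlapped an RRPE match, although RRPE matches on opposite strands of one A and T run overlap each other. The median distance from the start codon was 116 bases for 71 PAC matches and 140.5 bases for 50 RRPE matches. UTP22, whose product belongs to a complex of the small-subunit processome, was the only factor with neither match in this window. A match is a description of these letters and not evidence of a bound factor.

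The stretches that hold these matches are shown for the 5 factors with the largest strain difference in plain medium (RSA4, NOG1, NSR1, NOG2 and REI1) and for the 6 factors without a call in it (KRR1, NOP1, MPP10, LSG1, NOP56 and NOP7), so that both ends of the list can be compared. They were read from the R64 genome, run 5′ to 3′ on the coding strand, and reach 10 bases beyond the outermost matches. Capitals mark PAC (GATGAG or its reverse complement CTCATC) and RRPE.
RSA4, chrIII:242429-242488, minus strand: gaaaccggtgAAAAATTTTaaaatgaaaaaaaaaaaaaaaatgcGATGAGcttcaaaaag
NOG1, chrXVI:370825-370885, plus strand: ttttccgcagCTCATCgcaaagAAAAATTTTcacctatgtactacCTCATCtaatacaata
NSR1, chrVII:807828-807853, minus strand: gcaagggcagCTCATCgcaagaacga
NOG2, chrXIV:723247-723303, minus strand: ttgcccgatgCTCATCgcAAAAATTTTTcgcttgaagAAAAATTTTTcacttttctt
REI1, chrII:739734-739773, plus strand: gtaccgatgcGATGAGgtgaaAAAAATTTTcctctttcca
KRR1, chrIII:23432-23527, minus strand: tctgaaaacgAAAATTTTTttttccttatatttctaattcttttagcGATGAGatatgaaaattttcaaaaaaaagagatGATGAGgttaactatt
NOP1, chrIV:427128-427175, plus strand: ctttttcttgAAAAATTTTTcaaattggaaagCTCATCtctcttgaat
MPP10, chrX:438780-438805, plus strand: tcaattttgcGATGAGctcttgaaga
LSG1, chrVII:314554-314579, plus strand: ataaagaggtGATGAGcttataagcc
NOP56, chrXII:545960-546004, plus strand: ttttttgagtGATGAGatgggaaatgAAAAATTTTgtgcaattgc
NOP7, chrVII:695266-695330, plus strand: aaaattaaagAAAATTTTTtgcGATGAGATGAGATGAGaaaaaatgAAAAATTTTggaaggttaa

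Both ends of the list hold PAC, and both hold genes with and without RRPE. The RSA4 matches lie 126 (RRPE) and 92 (PAC) bases before the start codon, and those of NOP1 lie farther out, with RRPE from 226 and PAC at 204 bases. In NOP7 the 3 PAC matches overlap in one run of GATGAGATGAGATGAG. NSR1, MPP10 and LSG1 hold PAC alone.

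**Figure D1:**
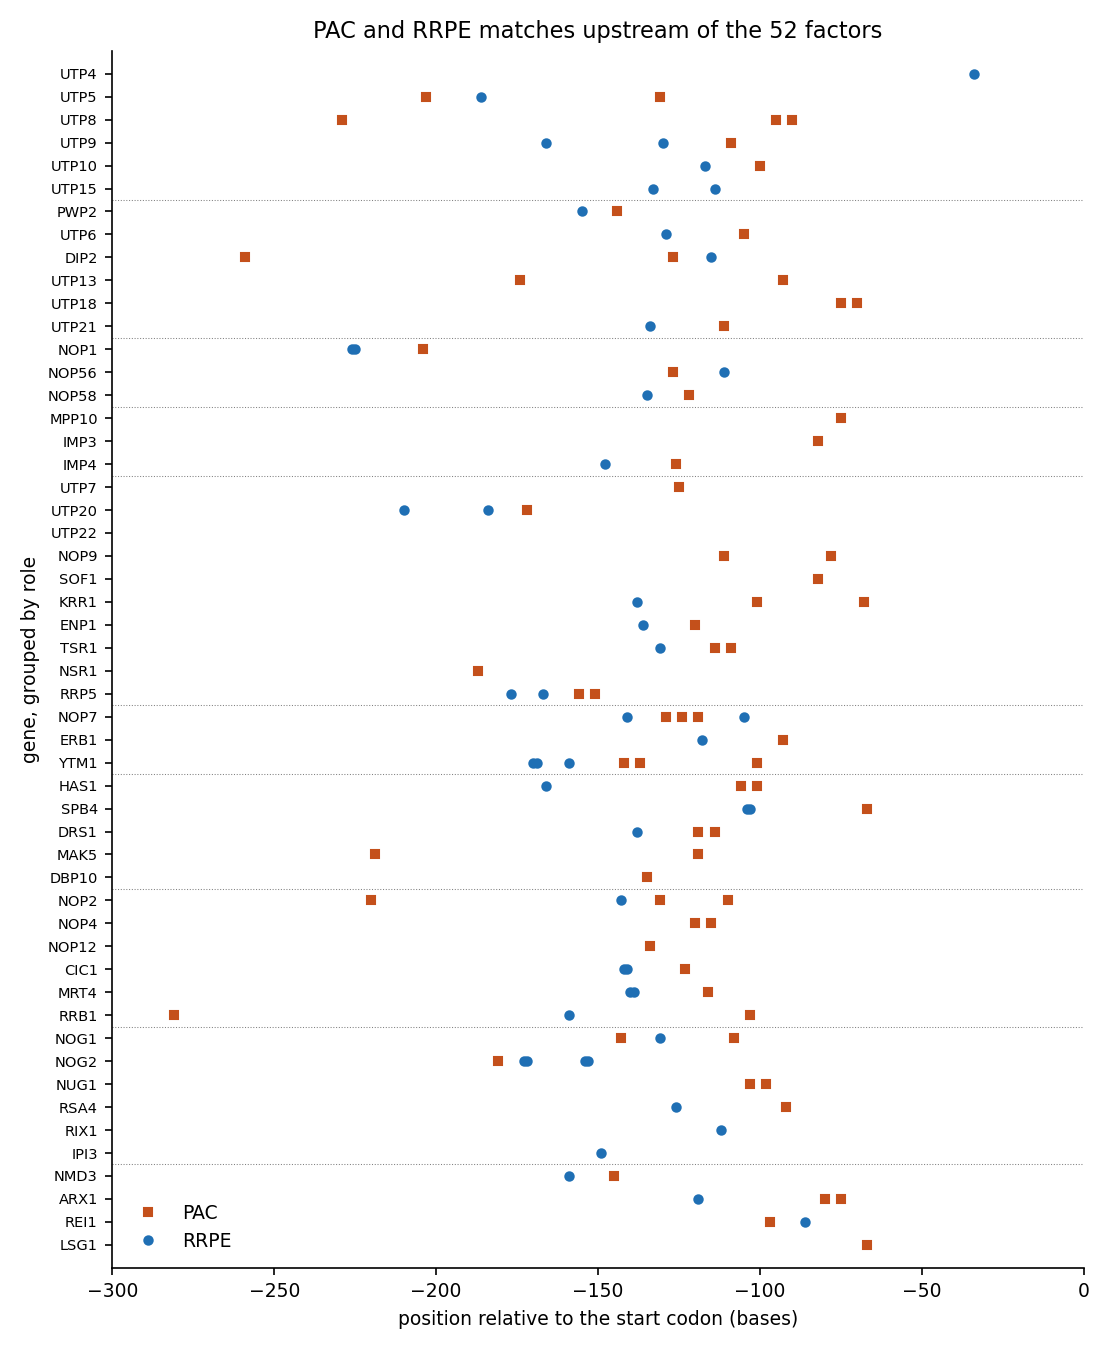
Position of each PAC match (squares) and RRPE match (circles) in bases relative to the start codon, for the 52 factors grouped by role. Most matches lie between 100 and 200 bases before the start codon, with medians of 116 bases for PAC and 140.5 bases for RRPE, and UTP22 has none.

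In plain medium the control strain expressed the 52 factors over a wide range of levels. Per kilobase of transcript, NOP1, the methyltransferase of box C/D snoRNPs that modifies ribosomal RNA, was highest, at 526.7 ± 79.4 CPM per kb in WTD (SD, n = 3). HAS1, a helicase of both subunit pathways, followed at 87.4 ± 19.7 and NOP58, a core protein of the same snoRNPs, at 77.9 ± 14.7 CPM per kb, which do not differ beyond their spread. RSA4, which helps the pre-60S particle reach its mature form before export, was lowest, at 3.54 ± 0.25 CPM per kb. Its next neighbours in the order, NOP4 at 6.68 ± 1.21 and REI1 at 6.87 ± 0.35 CPM per kb, lay above it by more than their spread and did not differ from each other beyond it.

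As a share of all reads the 52 genes ranged from 0.228% in WTD replicate 1 (95% Wilson interval 0.226% to 0.230%) to 1.04% in LGE replicate 3 (1.037% to 1.046%), and these intervals cover counting error only. By group the share was lowest in WTD, at 0.259% ± 0.0459, and highest in LGD, at 0.754% ± 0.284 (SD, n = 3). Between them lay LGL at 0.375% ± 0.0973, WTE at 0.404% ± 0.0679, WTC at 0.488% ± 0.0943, WTL at 0.488% ± 0.0237, LGC at 0.547% ± 0.222 and LGE at 0.654% ± 0.335. The libraries of neighbouring groups overlapped throughout this order, and WTD (0.228% to 0.312%) touched LGL (0.312% to 0.487%) but lay wholly below every other group apart from LGC, whose replicate 3 stood at 0.290%. Gene by gene, 45 of 52 factors had their lowest group mean in WTD and 49 had their highest in LGD.

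Within the groups, replicate 3 departed from replicates 1 and 2 across nearly the whole list at once, WTL excepted. Its median log2 difference from their mean was -0.99 in LGD and -1.19 in LGC, lower for 52 of 52 factors in both, and 1.09 in LGE, higher for 52 of 52. In the other groups it was 0.59 in LGL, 0.38 in WTD, 0.43 in WTE, -0.09 in WTL and -0.49 in WTC. Over all 5403 genes compared the same median stayed between -0.07 and 0.02 in each group. The environmental stress genes, a list of 24 that includes CTT1, lay on the other side in the same libraries. Relative to the WTD mean, that list's mean log2 level was -2.28, -2.26 and -0.23 in LGD replicates 1, 2 and 3, -0.26, -0.25 and -2.15 in LGE, and -0.86, -0.88 and 0.24 in LGC. Its part in the results on the 52 factors was not tested.

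**Figure D2:**
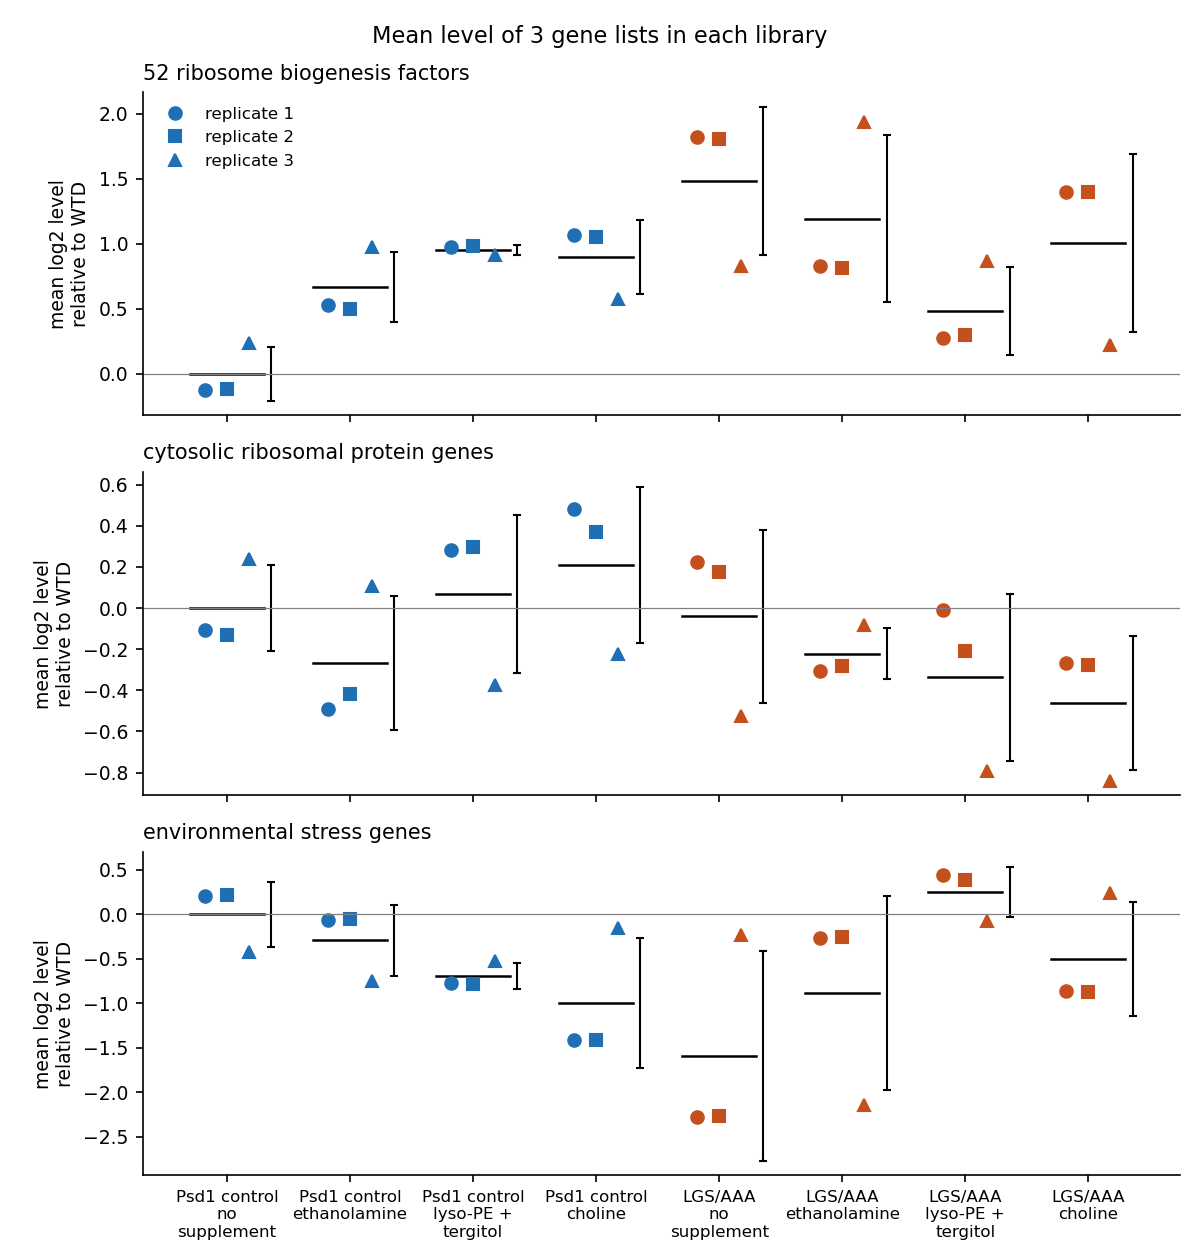
Mean log2 level relative to the WTD mean in each library (points, shaped by replicate) for the 52 factors, the cytosolic ribosomal protein genes and 24 environmental stress genes, with group means (lines) and SD (bars). The 52 factors stand at 1.82, 1.81 and 0.83 in LGD replicates 1, 2 and 3, and at 0.83, 0.82 and 1.94 in LGE.

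The comparison of the mutant with the control strain in plain medium asked which transcripts differ when Psd1 cannot mature. Factors of all 10 classes were higher in the mutant. Of 52, edgeR called 46 higher and 0 lower at an adjusted p under 0.05, where 19.5% of all 6169 genes tested were called higher and 17.3% lower. Their median log2 fold change was 1.52, with all 52 positive, from 0.49 for KRR1 to 3.06 for RSA4. The libraries of the strains did not overlap for 43 of 52, against 28.2% of all genes in that direction.

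These counts depended on the libraries. Without WTD replicate 1 edgeR called 29 factors higher, where 560 of all 6226 genes were. Without WTD replicate 2 it called 30, where 564 of all 6228 genes were. With replicates 1 and 2 summed it called 3 (RSA4, REI1 and UTP18), where 51 of all 6272 genes were called higher. After summing 40 factors, and 1647 of all genes, had an unadjusted p under 0.05. All 52 fold changes were still positive, with a median of 1.28. Without replicate 3 edgeR called 52, where 2169 of all 6186 genes were called higher. Taken from replicates 1 and 2, the median log2 difference was 1.95, positive for 52 of 52 factors, and from replicate 3 it was 0.59, positive for 43.

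The nuclear GTPases and late nuclear factors of the large subunit, which mature the pre-60S particle before export, had the largest class median, at 2.09, and 6 of 6 rose. RSA4 (YCR072C, chromosome III, 240805-242352) stood at 52.4, 58.2 and 28.6 CPM in LGD replicates 1, 2 and 3, against 5.0, 5.8 and 5.6 CPM in WTD. Every mutant library lay above every control library, and RSA4 rose by 3.06 ± 0.28 on the log2 scale (SE; edgeR adjusted p 0.00109, and 0.0472 with summing). NOG2 (YNR053C, chromosome XIV, 721120-723112), the GTPase that holds a checkpoint before export and whose intron hosts snR191, had 81.1, 77.6 and 39.8 against 11.2, 12 and 13.4 CPM. Its groups did not overlap either, and it rose by 2.42 ± 0.28 (adjusted p 0.00188, and 0.0581 with summing). NOG1 (YPL093W, chromosome XVI, 370978-372921), a GTPase bound to the particle from nucleolus to cytoplasm, had 593, 604 and 233 against 69.0, 77.1 and 96.9 CPM. It rose by 2.54 ± 0.37 (adjusted p 0.00391, and 0.0793 with summing). The other members of the class changed by 1.19 (NUG1, a nuclear GTPase) to 1.76 (IPI3, a subunit of the Rix1 complex).

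Of the 4 factors of export and cytoplasmic maturation, 3 rose. REI1 (YBR267W, chromosome II, 739841-741022), which releases Arx1 from the cytoplasmic particle, had 48.6, 48.7 and 28.4 CPM in LGD and 8.6, 8.0 and 7.8 CPM in WTD. These values did not overlap, and REI1 rose by 2.35 ± 0.23 (adjusted p 0.00120, and 0.0483 with summing). ARX1, an export factor, rose by 2.17 ± 0.36 and NMD3, the export adaptor, by 1.13 ± 0.30. LSG1, the cytoplasmic GTPase that releases Nmd3, had 76.9, 68.7 and 37.3 against 32.7, 31.3 and 39.8 CPM. Its lowest mutant library lay below its highest control library, and its difference of 0.80 ± 0.26 was not called (adjusted p 0.0525).

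The UTP-A and UTP-B complexes, which open small-subunit assembly on the precursor RNA, are represented by 6 genes each. All 6 UTP-A genes counted here rose, with a median log2 fold change of 1.67. UTP9 had 83.5, 79.8 and 35.6 CPM in LGD and 15.5, 14.5 and 16.3 CPM in WTD, and so rose by 2.08 ± 0.32 (adjusted p 0.00439, and 0.0806 with summing). All 6 UTP-B genes counted here rose too, with a median of 1.87. UTP18 had 67.0, 69.6 and 41.2 against 14.0, 13.6 and 12.3 CPM, with no overlap, and rose by 2.13 ± 0.21 (adjusted p 0.00127, and 0.0483 with summing).

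The box C/D snoRNP proteins, which carry ribosomal RNA methylation and the U3 particle, differed less between the strains. NOP58 (overlapped by YOR309C on the same strand) had 269.7, 267.9 and 140.3 CPM in LGD and 103.8, 109.7 and 145.6 CPM in WTD, so that replicate 3 of both strains overlapped. It rose by 0.90 ± 0.27 (adjusted p 0.0387), a call lost in 5 of 6 fits that left out 1 library (adjusted p up to 0.133) and with summing (0.284). NOP1 had 1017, 1036 and 493 against 465, 482 and 608 CPM and was not called (0.69 ± 0.29, adjusted p 0.105), nor was NOP56 (0.82 ± 0.31, adjusted p 0.0799). NOP56 overlaps YLR198C on the opposite strand.

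In the Mpp10 complex, which joins U3 to the precursor, 2 of 3 genes rose. IMP4 had 42.3, 43.9 and 23.1 CPM in LGD and 14.8, 14.4 and 21.4 CPM in WTD, and rose by 1.09 ± 0.28 (adjusted p 0.0231). Its groups stood just apart, and the call was lost in 4 of 6 fits without 1 library (adjusted p up to 0.0878) and with summing (0.204). IMP3 rose by 1.13 ± 0.31. MPP10 differed by 0.64 ± 0.22 without a call (adjusted p 0.0539).

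Of the 10 other small-subunit factors, 9 rose. NSR1 (YGR159C, chromosome VII, 806412-807656, overlapped by YGR160W on the opposite strand), the yeast nucleolin, had 625, 633 and 226 CPM in LGD and 66.8, 73.8 and 119 CPM in WTD. Its groups did not overlap, and it rose by 2.49 ± 0.43 (adjusted p 0.00658, and 0.10 with summing). SOF1, a processome protein, had 54.0, 53.5 and 27.9 against 14.4, 12 and 15.1 CPM and rose by 1.69 ± 0.27 (adjusted p 0.00485, and 0.0821 with summing). KRR1, another processome protein, had 53.9, 49.6 and 33.3 against 28.2, 26.7 and 40.8 CPM. Its groups overlapped, and its difference of 0.49 ± 0.23 was not called (adjusted p 0.135).

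Among nucleolar factors of the large subunit, 2 of 3 genes of the Nop7-Erb1-Ytm1 complex rose, as did 5 of 5 DEAD-box helicases and 6 of 6 other factors. YTM1 had 102.2, 99.5 and 50.3 CPM in LGD and 22.6, 23.0 and 29.4 CPM in WTD, and rose by 1.73 ± 0.28 (adjusted p 0.00532, and 0.0888 with summing). NOP7, its partner, differed by 0.84 ± 0.30 without a call (adjusted p 0.0620). DRS1 had 95.4, 101.4 and 47.6 against 23.2, 21.0 and 31.1 CPM and rose by 1.68 ± 0.30 (adjusted p 0.00759, and 0.110 with summing). SPB4, another helicase, rose least of the called factors, by 0.69 ± 0.15. MRT4, which holds the place of the ribosomal stalk protein P0, had 148.3, 143.0 and 74.0 against 35.0, 32.4 and 39.5 CPM and rose by 1.75 ± 0.27 (adjusted p 0.00438, and 0.0817 with summing).

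**Figure D3:**
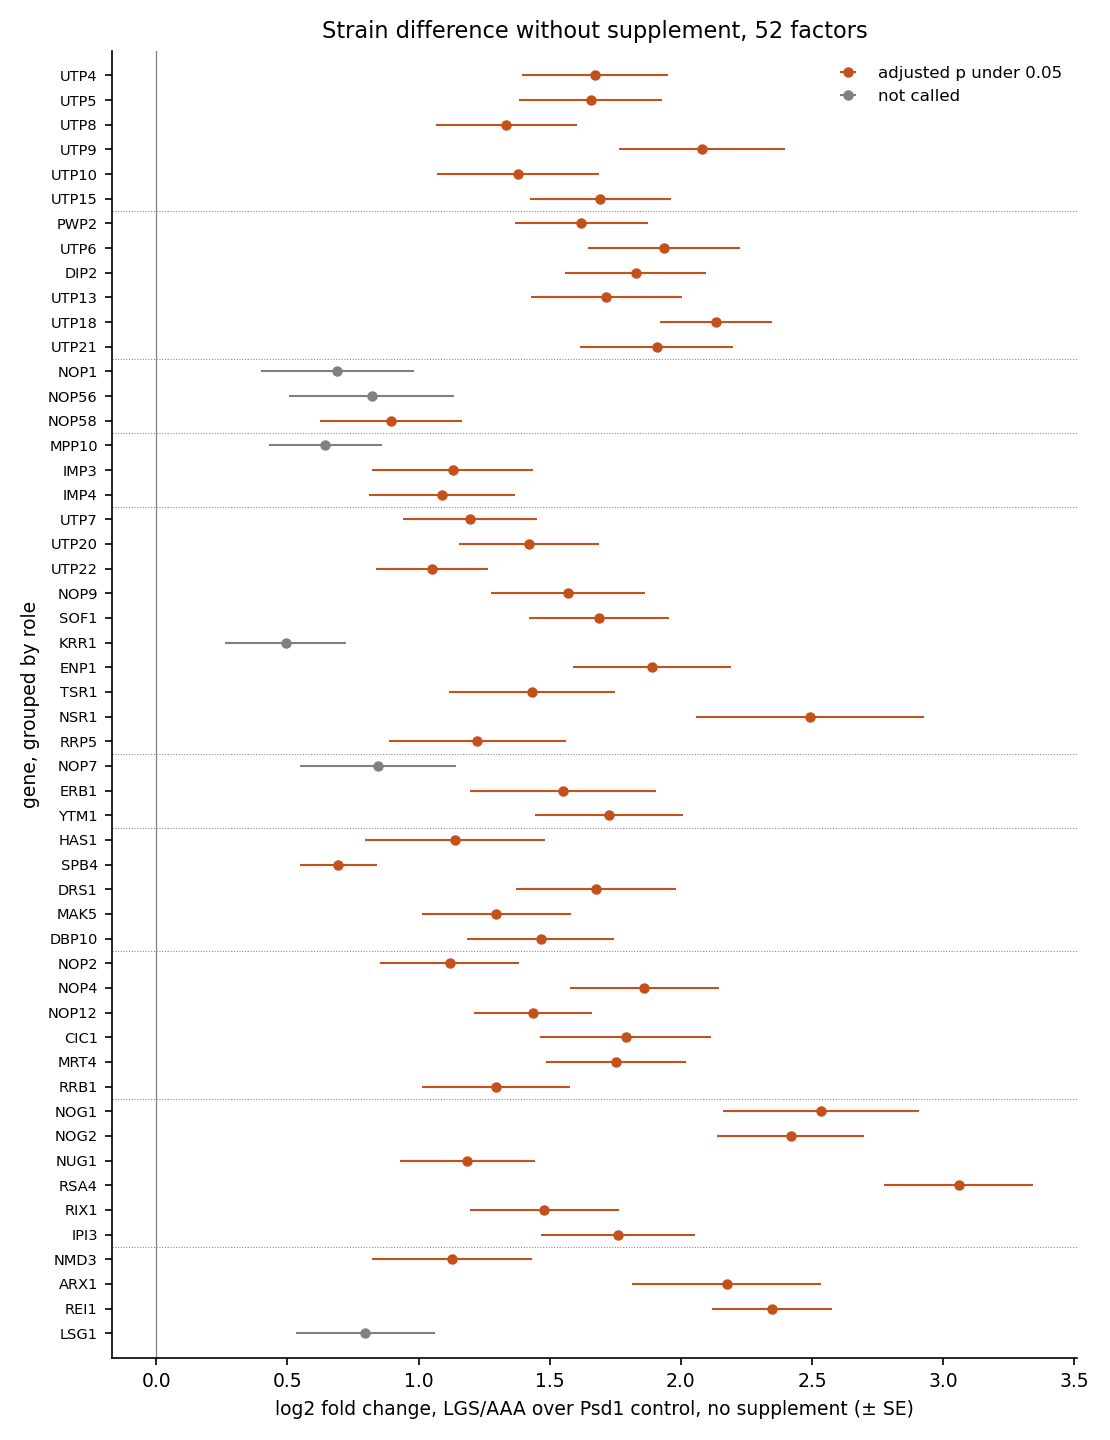
Log2 fold change of LGD over WTD for each of the 52 factors, grouped by role, with SE bars (n = 3 libraries per group); orange points had an adjusted p under 0.05. RSA4 lies farthest out at 3.06, and the 6 grey points are NOP1, NOP56, MPP10, KRR1, NOP7 and LSG1.

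Ethanolamine lets cells make PE by another pathway, and its effect on the mutant is the first comparison of media. For LGE against LGD edgeR called 0 of 52 factors (0 at an unadjusted p under 0.05, and 0 by DESeq2), where 0.0322% of all genes were called higher and 0.193% lower. The median log2 fold change was -0.20. This median joins opposite movements. From replicates 1 and 2 the median difference was -0.95, negative for 52 of 52 factors, and from replicate 3 it was 1.13, positive for 52 of 52. RSA4 had 17.4, 14.0 and 80.5 CPM in LGE replicates 1, 2 and 3, against 52.4, 58.2 and 28.6 CPM in LGD, so that the highest and the lowest libraries both belonged to LGE. Without replicate 3 edgeR called 52 of 52 lower, where 1933 of all 6206 genes were called lower and 1862 higher. Summing replicates 1 and 2 gave 0 calls (0 at an unadjusted p under 0.05), and the median turned to 0.15, positive for 40 factors.

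With tergitol and lyso-PE all 52 fitted fold changes of the mutant against plain medium were negative, and a minority passed the test. Between LGL and LGD edgeR called 18 of 52 lower and 0 higher, where 7.43% of all genes were called lower and 5.82% higher, and the median log2 fold change was -1.02. UTP-B had the largest share of calls, with 5 of 6 lower. The box C/D, Mpp10 and Nop7-Erb1-Ytm1 genes (0 of 3 each) and the DEAD-box helicases (0 of 5) had no call. NSR1 had 118.4, 116.8 and 150.8 CPM in LGL against 625, 633 and 226 CPM in LGD, or a change of -1.94 ± 0.38 (adjusted p 0.0265, and 0.340 with summing). NOG1 had 113.8, 107.6 and 180.1 against 593, 604 and 233 CPM (-1.83 ± 0.39, adjusted p 0.0298, and 0.363 with summing). ARX1 had 42.1, 44.8 and 61.4 against 219.0, 204.8 and 80.6 CPM (-1.77 ± 0.37, adjusted p 0.0297, and 0.344 with summing). In these 3 genes every LGL library lay below every LGD library, as in 22 of the 52 (17.7% of all genes).

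The LGL count rested on single libraries. It was 0 without LGL replicate 1, LGL replicate 2, LGD replicate 1 or LGD replicate 2, 28 without LGL replicate 3 and 48 without LGD replicate 3. The fits with 0 called 1, 1, 28 and 27 of all genes lower, in that order. Over all genes 758 of 6233 were called lower without LGL replicate 3 and 1068 of 6226 without LGD replicate 3. NSR1, NOG1 and ARX1 lost their call in 4 of 6 fits without 1 library, with adjusted p up to 0.127, 0.141 and 0.137. Summing gave 0 calls, as over all 6290 genes. After summing 18 factors, and 729 of all genes, had an unadjusted p under 0.05, and all 52 fold changes stayed negative. Without replicate 3 the count was 52, where 2018 of all 6197 genes were called lower and 1995 higher. The difference came from replicates 1 and 2, with a median of -1.55, negative for 52 of 52 factors, while in replicate 3 it was 0.07, positive for 30. DESeq2 called 42.

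Choline, which does not lead to PE, gave 0 calls of 52 for LGC against LGD with edgeR (0 at an unadjusted p under 0.05, and 0 by DESeq2), as it did for all genes (0.0% higher and 0.0% lower). The median log2 fold change was -0.45. Libraries with the same number shifted together here across genes. As replicates 1 and 2 nearly coincide, this mostly follows replicate 3. A fit blocked on the replicate number, which treats replicates 1 and 2 as separate blocks, called 40 of 52 lower and 0 higher. Over all genes it called 13.6% lower and 11.0% higher. The median log2 difference was -0.40 from replicates 1 and 2, negative for 50 factors, and -0.60 from replicate 3, negative for 51. NOG1 had 390.1, 401.3 and 128.4 CPM in LGC against 593, 604 and 233 CPM in LGD, and so was lower in each numbered pair while the groups overlapped. Summing gave 0 calls (0 at an unadjusted p under 0.05). Leaving out replicate 3 gave 46 lower, where 1698 of all 6202 genes were called lower and 1709 higher. The comparisons of LGE, LGL and LGC with LGD share the LGD libraries and are not independent of each other.

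In the control strain each supplemented medium went with higher levels of most factors than plain medium. With ethanolamine (WTE vs WTD) edgeR called 29 of 52 higher and 0 lower, where 11.6% of all genes were called higher and 11.0% lower, and the median log2 fold change was 0.69. The groups did not overlap for 34 factors, all higher in WTE (20.1% of all genes). Libraries with the same number shifted together here too, and the blocked fit called 43 higher and 1 lower (17.4% and 16.2% of all genes). With replicates 1 and 2 summed edgeR called 20, where 127 of all 6264 genes were called higher. Without replicate 3 it called 43 higher and 3 lower, where 1728 and 1756 of all 6203 genes were. Both parts of the data moved alike, with a median difference of 0.61 from replicates 1 and 2 and 0.79 from replicate 3.

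The classes differed in how many members passed in this comparison. All 6 UTP-B and 5 of 6 UTP-A genes rose, against 0 of 3 box C/D genes, whose log2 fold changes lay between -0.08 and 0.03, and 1 of 5 helicases. RSA4 had 19.2, 20.9 and 24.2 CPM in WTE against 5.0, 5.8 and 5.6 CPM in WTD, and rose by 1.99 ± 0.15 (adjusted p 0.000223, and 0.00682 with summing). REI1 had 22.8, 20.7 and 26.6 against 8.6, 8.0 and 7.8 CPM (1.54 ± 0.14, adjusted p 0.000489). UTP9 had 36.5, 39.0 and 48.6 against 15.5, 14.5 and 16.3 CPM (1.44 ± 0.13, adjusted p 0.000459).

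NOG2 had 29.9, 24.9 and 41.0 CPM in WTE against 11.2, 12 and 13.4 CPM in WTD (1.41 ± 0.19, adjusted p 0.00207). UTP18 had 31.7, 34.6 and 37.5 against 14.0, 13.6 and 12.3 CPM (1.40 ± 0.12, adjusted p 0.000315). In RSA4, REI1, UTP9, NOG2 and UTP18 the groups did not overlap, and each kept an adjusted p under 0.05 with summing, with the block and in each fit without 1 library. With all 24 libraries in one fit NOG2 and UTP18 lost it (0.0727 and 0.0574). NOP58 is the contrast, with 89.9, 87.4 and 157.4 CPM in WTE against 103.8, 109.7 and 145.6 CPM in WTD, so that 2 WTE libraries lay below and 1 above all those of WTD.

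With tergitol and lyso-PE (WTL vs WTD) edgeR called 42 of 52 higher and 0 lower, where 6.82% of all genes were called higher and 5.92% lower, with a median log2 fold change of 1.00. The groups did not overlap for 46 factors, all higher in WTL (18.6% of all genes). RSA4 had 19.7, 17.7 and 29.7 CPM in WTL, all above WTD, and rose by 2.04 ± 0.23 (adjusted p 0.00618, and 0.146 with summing). NOG2 had 35.6, 32.4 and 36.7 CPM and rose by 1.52 ± 0.12 (adjusted p 0.00370, and 0.146 with summing). NOP4, an RNA-binding factor of the early pre-60S particle, had 39.0, 39.8 and 36 against 12.2, 12.4 and 16.6 CPM and rose by 1.48 ± 0.14 (adjusted p 0.00476, and 0.146 with summing). The count was 21 without WTD replicate 1, where 68 of all 6207 genes were called higher. It was 19 without WTD replicate 2, where 59 of all 6180 genes were. With summing it was 0, as over all 6259 genes. After summing 40 factors, and 921 of all genes, had an unadjusted p under 0.05. Without replicate 3 the count was 52, where 1733 of all 6134 genes were called higher.

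With choline (WTC vs WTD) 44 of 52 were called higher and 0 lower, where 10.1% of all genes were called higher and 9.05% lower, with a median of 0.97. The groups did not overlap for 42 factors, all higher in WTC (17.4% of all genes). RSA4 had 18, 17.1 and 14.4 CPM in WTC, all above WTD, and rose by 1.61 ± 0.14 (adjusted p 0.00140, and 0.0511 with summing). IPI3 had 45.9, 51.9 and 34.6 against 16.2, 18.5 and 21.0 CPM and rose by 1.27 ± 0.17 (adjusted p 0.00353, and 0.0675 with summing). NSR1 had 263.3, 263.4 and 107.8 against 66.8, 73.8 and 119 CPM, so that WTC replicate 3 lay below WTD replicate 3. Its log2 change was 1.31 ± 0.36 (adjusted p 0.0405), lost in 4 of 6 fits without 1 library (adjusted p up to 0.151) and with summing (0.288). The count was 28 without WTC replicate 2, 23 without WTD replicate 1 and 23 without WTD replicate 2. Over all genes 208 of 6174, 188 of 6177 and 200 of 6170 were called higher, in that order. With summing the count was 0, where 3 of all 6230 genes were called higher. After summing 39 factors, and 1152 of all genes, had an unadjusted p under 0.05. Without replicate 3 the count was 52, where 1685 of all 6141 genes were called higher. These 3 comparisons share the WTD libraries, which are the lowest of the series for most of the factors.

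Within each supplemented medium the strains were also set against each other. For LGE against WTE edgeR called 0 of 52 (13 at an unadjusted p under 0.05, and 2 by DESeq2), where 0.627% of all genes were called higher and 0.209% lower. The median log2 fold change was 0.58, with all 52 positive, and the groups did not overlap for 12 (13.2% of all genes). Over all genes 1023 of 6220 had an unadjusted p under 0.05, and DESeq2 called 485 of 6445. Leaving out LGE replicate 3 gave 1 factor called higher, where 555 of all 6241 genes were. Leaving out replicate 3 of both groups gave 32 higher and 5 lower, where 1780 and 1667 of all 6227 genes were. For LGL against WTL it called 0 (25 at an unadjusted p under 0.05, and 12 by DESeq2), where 1.18% of all genes were called higher and 0.34% lower. Over all genes 1475 of 6169 had an unadjusted p under 0.05, and DESeq2 called 797 of 6129. The median of the 52 was -0.44, and for 22 factors every LGL library lay below every WTL library (13.6% of all genes). Here too libraries with the same number shifted together, and the blocked fit called 13 of 52 lower and 0 higher, against 8.01% and 12.1% of all genes. Without LGL replicate 3 the count was 37 lower, where 430 of all 6197 genes were. Without WTL replicate 3 it was 4 lower, where 151 of all 6203 genes were. Without replicate 3 of both it was 50, where 1611 of all 6154 genes were called lower.

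For LGC against WTC edgeR called 0 (2 at an unadjusted p under 0.05, and 1 by DESeq2), where 9.7% of all genes were called higher and 6.93% lower, and the median was 0.13. Over all genes 2101 of 6175 had an unadjusted p under 0.05, and DESeq2 called 1671 of 6421. The blocked fit, for the same reason, called 1 higher and 1 lower, against 9.96% and 10.9% of all genes. Without LGC replicate 3 the count was 20 higher, where 1186 of all 6211 genes were called higher. Without replicate 3 of both it was 36 higher and 4 lower, where 2019 and 1967 of all 6182 genes were. After summing, each of these 3 comparisons had 0 calls, with 5, 2 and 0 at an unadjusted p under 0.05. Over all genes 378 of 6305, 452 of 6285 and 935 of 6248 had one, in the order LGE, LGL and LGC. In LGC vs WTC the median difference was 0.30 from replicates 1 and 2, positive for 43 factors, and -0.42 from replicate 3, positive for 8. In LGL vs WTL it was -0.72, negative for 52, and -0.01, negative for 27, in the same order. In LGE vs WTE it was 0.30, positive for 43, and 0.95, positive for 52. The order of the 52 factors by strain difference in plain medium had a Spearman correlation of 0.786 with that in choline, 0.431 with that in ethanolamine and -0.315 with that in tergitol and lyso-PE. Each of these pairs shares no library, while the genes of each comparison share theirs, so these are descriptions.

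**Figure D4:**
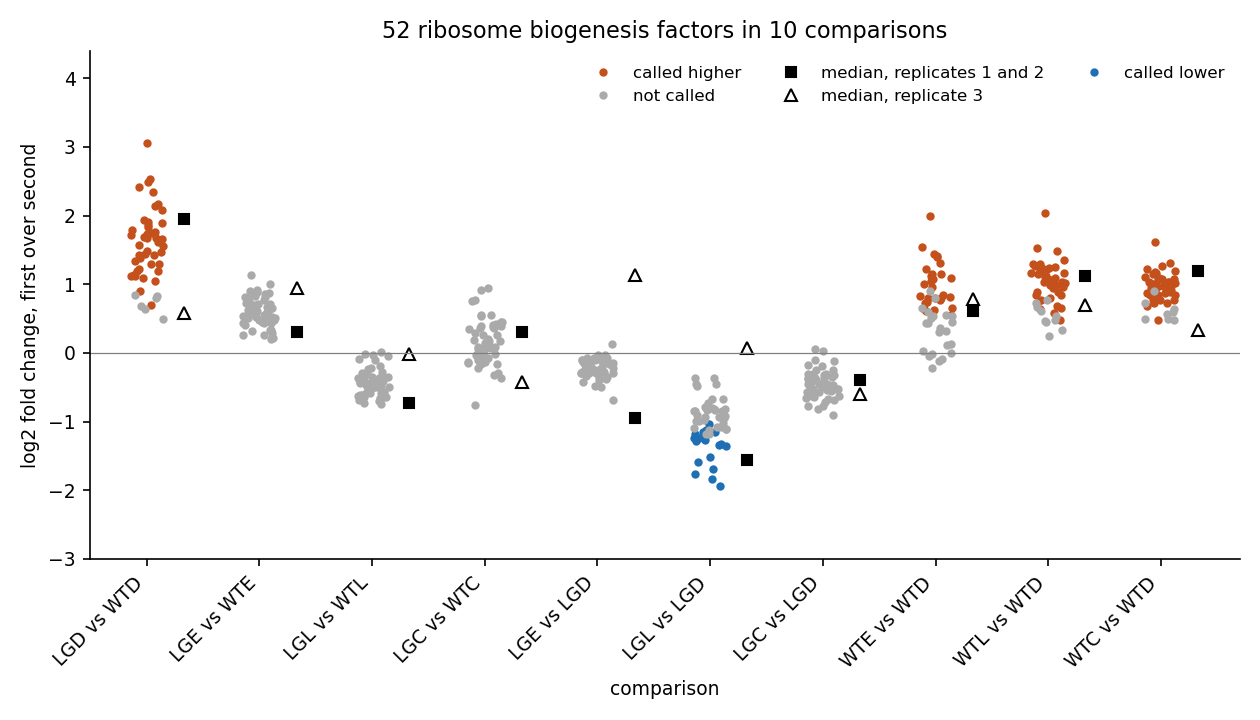
Log2 fold change of each of the 52 factors in the 10 pairwise comparisons (points; orange called higher, blue called lower, grey not called), with the median difference from replicates 1 and 2 (squares) and from replicate 3 (triangles). In LGE vs LGD these medians stand at -0.95 and 1.13, and in WTE vs WTD at 0.61 and 0.79.

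Whether a medium changed the strains differently was tested as an interaction, the log2 fold change of the medium in the mutant less that in the control strain. For tergitol with lyso-PE edgeR called 48 of 52 lower and 0 higher, where 13.0% of all genes were called lower and 12.2% higher, with a median of -2.03. RSA4 had 13.8, 11.5 and 17.9 CPM in LGL against 52.4, 58.2 and 28.6 CPM in LGD, and 19.7, 17.7 and 29.7 CPM in WTL against 5.0, 5.8 and 5.6 CPM in WTD. The mutant libraries with the lipid all lay below those without it and the control libraries all above, and the interaction was -3.71 ± 0.40 (adjusted p 0.000659, and 0.122 with summing). NOG2 gave -3.03 ± 0.34 (adjusted p 0.000669, and 0.122 with summing) and NSR1 -3.0 ± 0.50 (adjusted p 0.00332, and 0.166 with summing). The 4 factors without a call were MPP10, KRR1, NOP7 and HAS1. The same interaction is the strain difference in this medium (median -0.44, 0 called) less that in plain medium (1.52, 46 called). From replicates 1 and 2 the median difference of the medium was -1.55 in the mutant and 1.125 in the control strain. From replicate 3 it was 0.07 in the mutant, positive for 30 factors, and 0.70 in the control strain. Leaving out single libraries gave 44 to 52 calls. Over all genes it gave from 462 of 6306 to 1076 of 6299 called lower. Summing gave 0 calls, as over all 6351 genes. After summing 41 factors, and 1130 of all genes, had an unadjusted p under 0.05, and all 52 values were negative.

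For ethanolamine the interaction gave 0 calls of 52 with edgeR (21 at an unadjusted p under 0.05, and 4 by DESeq2), where 2.8% of all genes were called higher and 2.5% lower. Over all genes 1339 of 6281 had an unadjusted p under 0.05, and DESeq2 called 649 of 6550. The median of the 52 was -0.93. Without LGE replicate 3 the interaction was called lower for 34, where 783 of all 6312 genes were. Without LGD replicate 3 the interaction was called lower for 9, where 288 of all 6325 genes were. For choline it gave 0 (46 at an unadjusted p under 0.05, and 29 by DESeq2), where 0.448% of all genes were called higher and 0.416% lower, and the median was -1.39. Over all genes 1639 of 6254 had an unadjusted p under 0.05, and DESeq2 called 687 of 5892. Without LGD replicate 3 the count was 46 lower, where 708 of all 6277 genes were called lower. Without replicate 3 of any group both interactions were called lower for 52 of 52. Over all genes this gave 1928 of 6281 lower for ethanolamine and 1763 of 6244 for choline. Summing gave 0 calls in both, with 0 and 10 at an unadjusted p under 0.05, where 442 of all 6370 and 380 of all 6318 genes had one. The interactions share the LGD and WTD libraries.

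**Figure D5:**
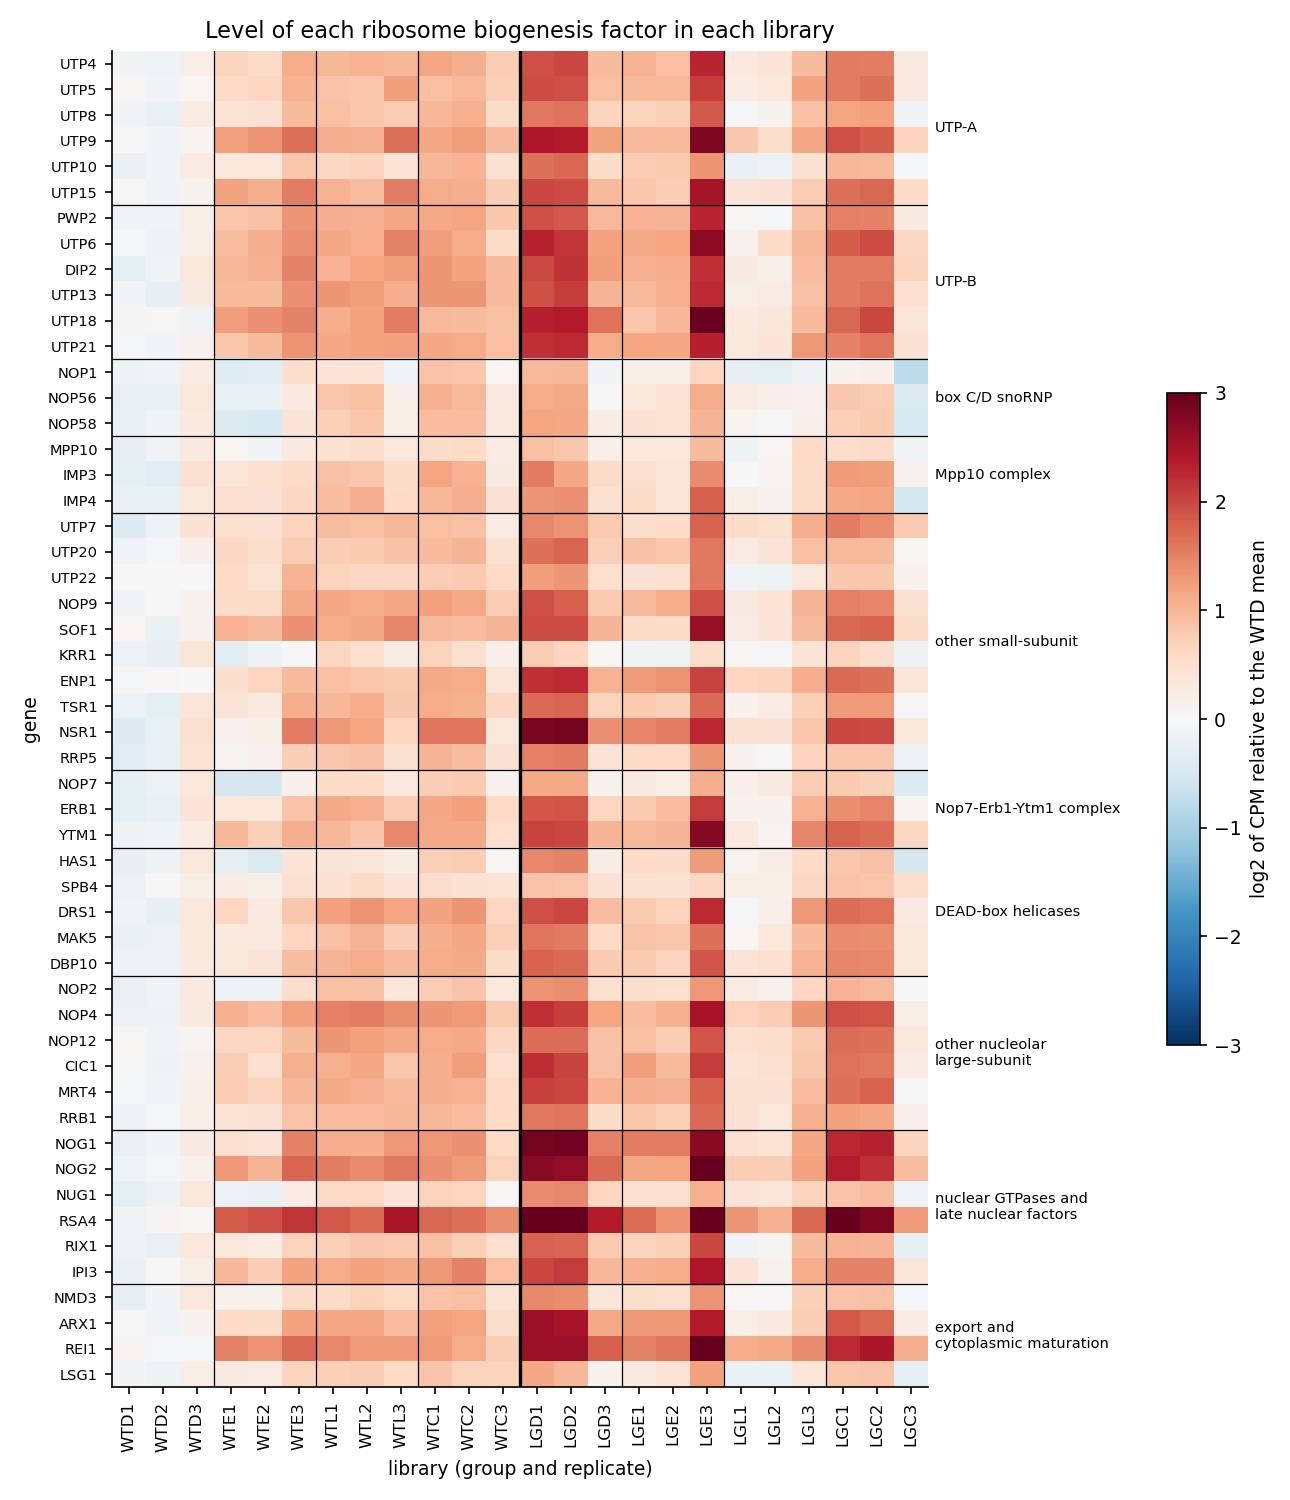
Log2 of CPM relative to the WTD mean for the 52 factors (rows, by role) in 24 libraries (columns; values above 3 are drawn at 3). LGD replicates 1 and 2, LGE replicate 3 and LGC replicates 1 and 2 are the darkest columns, and the box C/D rows are paler than the UTP-B rows.

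The factors with the lowest levels tended to differ most between the strains. Over 52 genes the Spearman correlation of the log2 fold change of LGD over WTD with the level per kb in WTC, a group outside that comparison, was -0.45, a description over genes that share libraries. By motif content, the median log2 fold change in LGD over WTD was 1.59 for the 32 factors with PAC and RRPE, 1.44 for the 15 with PAC alone and 1.68 for the 4 with RRPE alone. UTP22, with neither, rose by 1.05 ± 0.21. A further 115 genes hold both motifs and belong to none of the lists used here. Of these, 56 (48.7%) were called higher in LGD than in WTD and 6 (5.22%) lower. Over all genes 19.5% were called higher and 17.3% lower, and the median of the 115 was 0.50. With summing the count was 3 higher, where 51 of all 6272 genes were. Without replicate 3 it was 88 higher and 13 lower, where 2169 and 2164 of all 6186 genes were.

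Other genes of the same pathways were counted in the strain comparison in plain medium. Of other pre-ribosome factors, 42 of 48 for the small subunit and 40 of 52 for the large subunit were called higher and 0 lower, beside the 19.5% of all genes called higher, with medians of 1.24 and 1.16. RCL1, a processome protein, rose by 2.32 ± 0.21. RNA polymerase I and its factors gave 11 of 18 higher, with RRN11, a subunit of its core factor, at 2.41 ± 0.19. RNA polymerase III gave 8 of 10 higher, the exosome 10 of 13 and the box H/ACA snoRNP genes 2 of 6, each with 0 lower and beside the same 19.5%. With summing these 6 lists had 1, 0, 2, 0, 0 and 0 genes called higher in the order given here, where 51 of all 6272 genes were. Without replicate 3 they had 48, 52, 13, 10, 12 and 6, beside 2169 of all 6186 genes, with 3 RNA polymerase I genes lower.

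Of 135 tested cytosolic ribosomal protein genes 4 were called higher and 1 lower, with a median of -0.09. Summing gave 0 calls, and leaving out replicate 3 gave 94 higher and 9 lower with a median of 0.22. Many are near-identical pairs whose reads can be hard to assign to one copy, so their values are uncertain. Environmental stress genes gave 12 of 24 lower and 0 higher, beside the 17.3% of all genes called lower. Summing gave 0 calls, with 8 at an unadjusted p under 0.05. Without replicate 3 the count was 23 lower and 1 higher, where 2164 of all 6186 genes were called lower and 2169 higher. CTT1, the cytosolic catalase, had 155.6, 150 and 347.9 CPM in LGD and 953.1, 931.3 and 890.1 CPM in WTD, or a log2 change of -2.11 ± 0.34 (adjusted p 0.00505).

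Among 10 regulators 4 were called higher and 0 lower, beside 19.5% and 17.3% of all genes. The count was 1 higher with summing. Without replicate 3 it was 6 higher and 1 lower, where 2169 and 2164 of all 6186 genes were. TOD6, the PAC-binding repressor, had 70.9, 70.0 and 38.5 CPM in LGD and 8.5, 10.3 and 10.2 CPM in WTD, or a log2 change of 2.61 ± 0.26 (adjusted p 0.00124). IFH1, a coactivator of ribosomal protein genes, changed by 1.67 ± 0.28, CRF1, a corepressor, by 0.55 ± 0.08 and SCH9, a growth kinase, by 0.38 ± 0.11. DOT6 (-0.35 ± 0.14), STB3 (-0.02 ± 0.10) and SFP1 (0.17 ± 0.10), an activator of the regulon, were not called. Transcript levels say nothing of the activity of these proteins.

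In the tergitol and lyso-PE interaction the other pre-ribosome factors gave 40 of 48 and 42 of 52 lower, beside 13.0% of all genes. The stress genes gave 17 of 24 higher, beside 12.2% of all genes, with a median of 2.42. Summing left 0 calls in these 3 lists, as in all 6351 genes, with 32, 32 and 13 at an unadjusted p under 0.05. Without replicate 3 the counts were 47, 52 and 24, where 1891 of all 6256 genes were called lower and 2132 higher. In the authors' deposited table for LGD and WTD, 50 of the 52 factors had an adjusted p under 0.05 and were higher. Over all genes there, 2627 of the 6578 with an adjusted p had one under 0.05, in either direction. The authors' deposited tables gave 42 lower in LGL than in LGD, and 33, 49 and 49 higher in WTE, WTL and WTC than in WTD. Over all genes, in either direction, 1543 of 6357, 1694 of 6491, 1253 of 5812 and 1494 of 6337 were called, in that order. For LGE and LGC against LGD the authors' deposited tables called 0 of 52, beside 165 of 6453 and 306 of 6229 genes in either direction.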

How the data were processed

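The authors deposited 7 tables with whole-number read counts per gene, the same counts as normalized signal, FPKM, gene length, and their own log2 fold changes and p-values, per the file headers. The submitters' processing notes name CASAVA, STAR 2.5, HTSeq 0.6.1 and DESeq2 without a role. The genome build, annotation and strandedness are not given in the sources used here. Another annotated gene overlaps 5 of the 52 factors. For NOP56, NSR1 and HAS1 it lies on the opposite strand, and without known strandedness the reads cannot be told apart. For NOP58 and NOG2 it lies on the same strand, which strandedness would not separate, and that of NOG2 is in its intron.

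The counts were joined by gene and tested with edgeR 4.0.16 in R 4.3.3 (TMM scaling, filterByExpr, quasi-likelihood test, Benjamini-Hochberg adjustment over all genes tested, threshold 0.05), with the compared groups alone in each of 10 pairwise fits and 4 groups in each of 3 interactions. "Called" means an adjusted p under 0.05. Levels are CPM on TMM-scaled library sizes over 24 libraries, and log2 levels use a prior count of 2. The SE follows from the fold change and its F statistic. The code was tested on simulated data. Deposited coordinates of 5915 of 5924 matched genes, with those of all 52 factors, equal those of the R64 reference (RefSeq), from which sequences were read.

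Replicate numbers come from the labels, which give them no shared day or batch. Libraries sharing a number were checked for pairing. Across genes, their departures from the mean of their own group correlated by -0.681 to 0.735 over 10 comparisons. All 3 numbers exceeded 0.1 in 4 of them: WTE vs WTD, LGC vs LGD, LGC vs WTC and LGL vs WTL. Those also carry a blocked fit. In LGD vs WTD, LGE vs LGD, WTL vs WTD and WTC vs WTD all 3 were negative, from -0.311 to -0.681. Because replicates 1 and 2 nearly coincide, the 3 correlations mostly follow replicate 3 and are not 3 separate checks. Counts of called factors, and the named results, were recomputed without each library in turn, with replicates 1 and 2 summed, with the block, with a joint fit of 24 libraries, without the filter, with upper-quartile scaling or the size factors of DESeq2, and with the Wald test of DESeq2 1.42.0. The other lists, and the genes with both motifs, were recounted only with summing and without replicate 3, an addition made after the data were seen. Counts by class and of libraries that do not overlap come from the first fit alone.

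Full statistics are given for the called factors with the largest changes (up to 5 each way in LGD vs WTD and WTE vs WTD, up to 3 elsewhere) and for the smallest p of each class in LGD vs WTD. Further factors were named by role, after their values were seen. The 52 factors and the other lists were chosen with earlier results of these data known.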

Additional observations from a re-analysis of the deposited data

Results flagged for a closer look

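The effect of the tergitol and lyso-PE medium differed between the strains by the interaction test for 48 of the 52 factors, all lower. Among the factors named there, the log2 interaction was -3.71 for RSA4, -3.03 for NOG2 and -3.0 for NSR1. With replicates 1 and 2 summed, 0 of 52 were called and the 3 named values had adjusted p of 0.122, 0.122 and 0.166. This interaction is also the strain difference in that medium (median -0.44, 0 called) less that in plain medium (1.52, 46 called). In the mutant the median difference of the medium was -1.55 from replicates 1 and 2 and 0.07 from replicate 3.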

How the results depend on the processing

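Counts of called factors are given as edgeR's count with all libraries kept, then under the alternative. No fold change of the 30 named results reversed under any alternative, and all 30 kept their call with DESeq2's size factors, upper-quartile scaling, no filter and DESeq2's test. With replicates 1 and 2 summed 8 of 30 kept it, with the replicate block 20, with all 24 libraries in one fit 23, and in every fit without 1 library 24. Summing moved the count from 46 to 3 in LGD vs WTD, from 18, 42 and 44 to 0 in LGL vs LGD, WTL vs WTD and WTC vs WTD, and from 48 to 0 in the tergitol and lyso-PE interaction. The replicate block moved it to 28 in LGD vs WTD, 0 in LGL vs LGD, 40 in LGC vs LGD, 44 in WTE vs WTD, 0 in WTL vs WTD, 4 in WTC vs WTD, 13 in LGL vs WTL, 2 in LGC vs WTC and 16 in the choline interaction. The block treats replicates 1 and 2 as separate blocks. Over all genes, in either direction, summing moved the calls from 2270 to 96 in LGD vs WTD. It moved them from 822, 783 and 1173 to 0, 0 and 14 in LGL vs LGD, WTL vs WTD and WTC vs WTD. In the tergitol and lyso-PE interaction it moved them from 1582 to 0. The block gave 1275, 0, 1524, 2072, 1, 58, 1242, 1288 and 430 calls over all genes, in the order given for it. One fit of all 24 libraries gave 34 in LGL vs LGD, 5 in WTE vs WTD, 4 in WTL vs WTD, 0 in WTC vs WTD, 1 in LGC vs WTC and 2 in the ethanolamine interaction. Over all genes that fit gave 1679, 480, 183, 84, 1197 and 422 calls, in the same order. DESeq2's test gave 42 in LGL vs LGD, 2 in LGE vs WTE, 12 in LGL vs WTL, 1 in LGC vs WTC, 4 in the ethanolamine interaction and 29 in the choline interaction. Over all genes DESeq2's test gave 1548, 485, 797, 1671, 649 and 687 calls, in the same order. Upper-quartile scaling gave 1 in LGL vs WTL, beside 140 over all genes.

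Leaving out libraries, with replicate 3 left out of every group included (chosen after the data were seen), gave 29 to 52 in LGD vs WTD, 0 to 52 in LGE vs LGD, 0 to 52 in LGL vs LGD and 0 to 46 in LGC vs LGD. It gave 23 to 46 in WTE vs WTD, 19 to 52 in WTL vs WTD, 23 to 52 in WTC vs WTD, 0 to 37 in LGE vs WTE, 0 to 50 in LGL vs WTL and 0 to 40 in LGC vs WTC. In the interactions it gave 0 to 52 for ethanolamine, 44 to 52 for tergitol with lyso-PE and 0 to 52 for choline. Where replicate 3 is left out, each group rests on its closest pair and the spread is smallest. With it left out all 30 named results kept their call. The smallest count of any factor was 78, and the part of depth was not tested. The cause of the moved counts was not tested beyond these settings.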
